A study of Homo sapiens with 6 samples.

Results

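Glycolysis and hypoxia target genes were examined as a group of 40 genes in A549 cells with knockdown of CBX8. The group was a list of gene symbols that covers glucose uptake, the glycolytic enzymes, lactate handling and well-known targets and regulators of the hypoxia-inducible factors (HIF). All 40 were found among 28452 genes, through 186 transcript entries of a table of estimated counts, and the entries of a gene were summed. A549 is an established human lung adenocarcinoma line, and CBX8 is a chromobox subunit of Polycomb repressive complex 1, which represses transcription. RNA sequencing covered 3 groups of 2 libraries: A549 cells stably infected with lentivirus for a CBX8 shRNA, a transcript that directs RNA interference, titled shCBX8-1 and shCBX8-2, and cells infected with a control lentivirus. All groups were grown in serum-containing medium under carbon dioxide, and the labels name no hypoxic treatment. The labels do not say what the first number in the shCBX8 titles stands for, and do not mention separate cultures, so p-values cover only how far these libraries differ, a spread that may be technical.

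Glycolysis splits glucose into pyruvate, with a net gain of ATP, and pyruvate is then oxidised in mitochondria or reduced to lactate and exported. HIF is a dimer of an oxygen-regulated alpha subunit, HIF-1alpha (HIF1A) or HIF-2alpha (EPAS1), with ARNT. In the presence of oxygen the prolyl hydroxylases EGLN1 and EGLN3 mark the alpha subunits for destruction through the VHL ubiquitin ligase. When oxygen is scarce the dimer binds short sequences with an ACGTG or GCGTG core and raises transcription of glucose transporters, most glycolytic enzymes, carbonic anhydrase 9 and secreted factors such as VEGFA. Many tumour cells express glycolytic genes strongly in air as well.

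The libraries held 64197784 to 67169537 estimated counts in total, and 17985 to 18788 genes were detected in each. CBX8 stood at 7.79 and 7.70 CPM (counts scaled to a common library size by TMM, trimmed mean of M values) in shCBX8-1, at 17.7 and 13.8 CPM in shCBX8-2 and at 24.6 and 26.3 CPM in control, so every knockdown library was below both controls. Its fall in the mean of both (-1.20 ± 0.13, adjusted p = 0.00755) was no longer called without either control or either shCBX8-1 library (adjusted p of 0.0641 to 0.139). Of 13 epithelial markers 8 averaged at least 1 CPM, led by the keratins KRT8 and KRT18, while the alveolar markers SFTPC, SFTPB and SFTPA1 were at or near 0. The sum over the list ranged from 22040 to 22060 CPM in shCBX8-1, from 27930 to 31550 CPM in shCBX8-2 and from 24530 to 25410 CPM in control. Summed leukocyte markers (7 genes, with CD3E at 0 throughout) ranged from 4.23 to 4.92 CPM in shCBX8-1, from 2.88 to 5.09 CPM in shCBX8-2 and from 5.96 to 6.41 CPM in control. Summed fibroblast markers (7 genes, DCN at 0), nearly all COL1A1, ranged from 8.94 to 9.64, from 5.61 to 6.20 and from 12.2 to 14.9 CPM in the same order. Summed endothelial markers (5 genes, KDR at 0) ranged from 3.21 to 4.29 CPM in shCBX8-1, from 4.75 to 5.94 CPM in shCBX8-2 and from 2.00 to 2.82 CPM in control. The part of any of these lists in the results was not tested. In bulk samples fewer cells of a type and less RNA per cell cannot be told apart. The median absolute log2 difference between the 2 libraries of a group was 0.0458 in shCBX8-1, 0.144 in shCBX8-2 and 0.0622 in control over the 40 genes, and 0.128, 0.24 and 0.129 over all genes.

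As a share of all counts, the 40 genes held 3.33 and 3.39% in shCBX8-1, 3.95 and 3.64% in shCBX8-2, and 3.32 and 3.34% in control. The shCBX8-2 libraries were thus both above the other 4, and replicate 1 was the highest. Such a share rests mostly on the most abundant genes, GAPDH first. The 7 genes from triose phosphate to pyruvate held 28880 and 25250 of the 41850 and 37270 CPM of the 40 genes in shCBX8-2. In shCBX8-1 they held 22570 and 23180 of 32770 and 33650 CPM, and in control 21690 and 21760 of 32400 and 32370 CPM. Genes passed at an adjusted p under 0.05 in edgeR's quasi-likelihood test, with no minimum fold, and all 40 passed the filter on low counts. In shCBX8-1 against control 2 of the 40 rose and 4 fell, 15% in all, where 2.47% of all 17115 genes tested passed, 1.34% up and 1.13% down. In shCBX8-2 against control 12 rose and 3 fell, 37.5%, where 12.7% of all genes passed, 6.03% up and 6.64% down. In the mean of both knockdown groups against control 3 rose and 4 fell, 17.5% against 6.79% of all genes (3.31% up and 3.48% down). Between shCBX8-2 and shCBX8-1 10 were higher and 2 lower, 30% against 9.82% of all genes (4.05% higher and 5.77% lower). The comparisons with control share the same control libraries. The median log2 fold change of the 40 was -0.05, 0.00 and 0.00 in shCBX8-1, shCBX8-2 and their mean against control, and 0.08 in shCBX8-2 against shCBX8-1. Over all genes tested these medians were -0.01, -0.04, -0.04 and -0.01, so the genes that moved stood among many near 0 and on both sides of it.

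In both shCBX8 groups SLC2A1 and ADM rose, while PGK1 and EGLN3 passed in opposite directions, down in shCBX8-1 and up in shCBX8-2. The share of all genes with either of these patterns was not counted. Of all 17115 genes tested 423 passed in shCBX8-1, and 175 of these did not pass in shCBX8-2. The rest passed in both, in the same or in opposite directions. EPAS1 and P4HA2 passed in shCBX8-1, both downward, and did not pass in shCBX8-2. They are 5% of the 40, where 1.02% of all genes passed in shCBX8-1 only, counted in either direction. Both differed between the groups in the test of shCBX8-2 against shCBX8-1. In shCBX8-2 but not in shCBX8-1 11 genes passed, 27.5% where 11.2% of all genes did. Of these, 5 (HK1, ALDOA, TPI1, LDHA and CA9) differed between the groups in that test. Among all genes that passed in 1 shCBX8 group only, the share that differed was not counted. In 21 of the 40, no comparison passed, and the share of all genes with no call in any comparison was not counted.

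**Figure D1:**
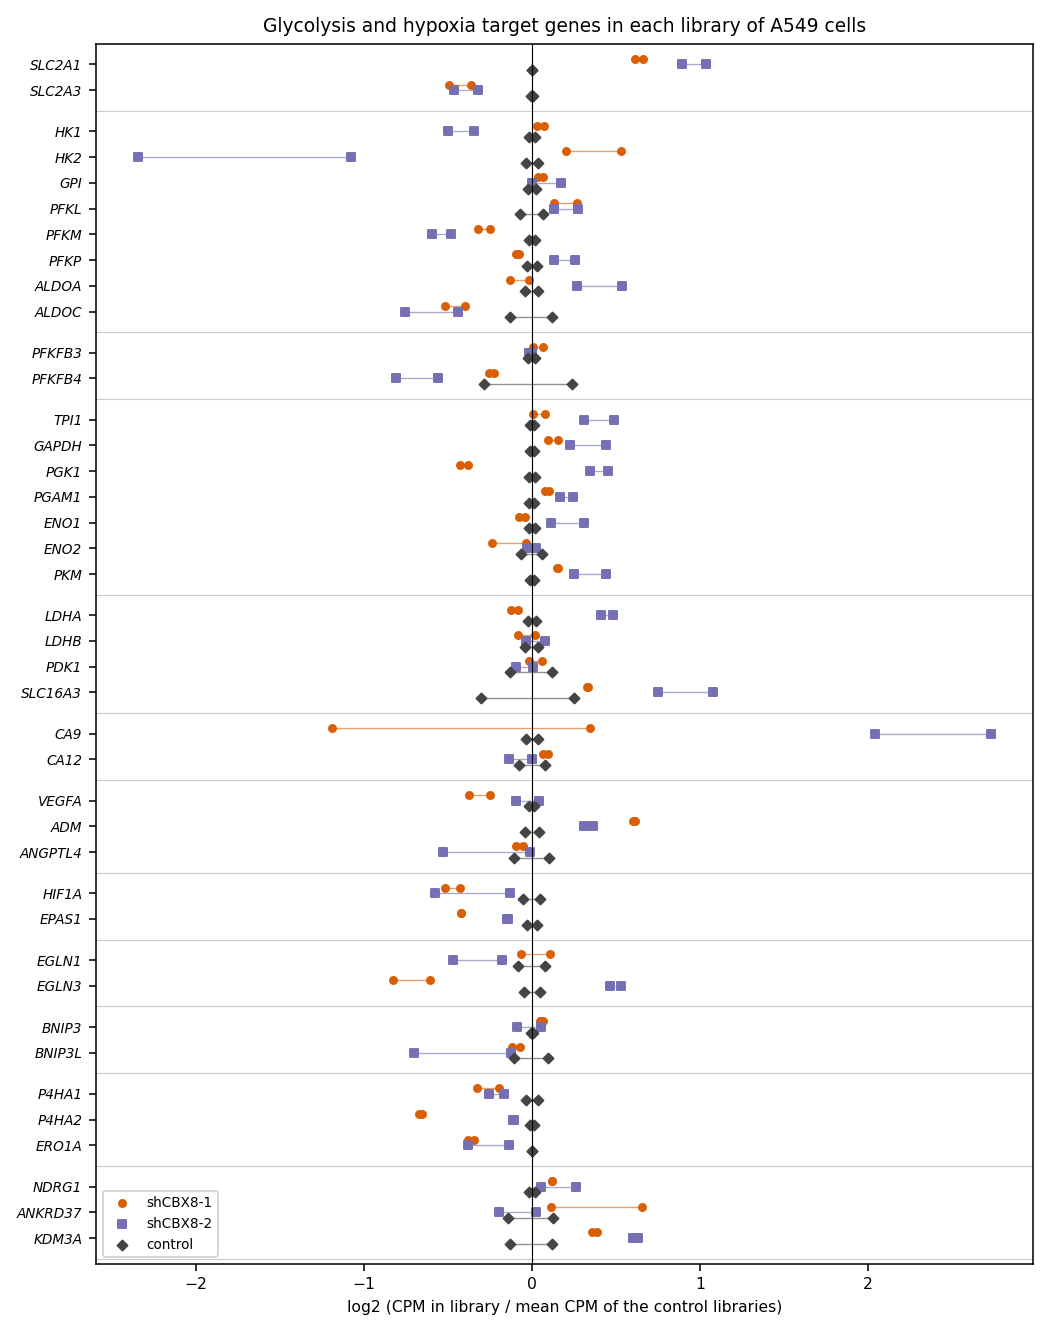
Level of each of the 40 genes in each of the 6 libraries, as log2 of CPM over the mean of the control libraries (x axis), with genes in blocks by role down the page and a line joining the libraries of a group. SLC2A1 lies right of 0 in all 4 knockdown libraries, PGK1 and EGLN3 lie left of 0 in shCBX8-1 and right of it in shCBX8-2, and CA9 and HK2 have the widest spread.

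These calls rest on few libraries. The 19 genes that passed anywhere gave 40 called values over the 4 comparisons, and 28 of these values ended whichever 1 of the control or shCBX8-1 libraries was left out. All but 1 value, CA9 in shCBX8-2 against control, kept its call without either shCBX8-2 library. The count of the 40 genes called moved together with the share of all genes called. In shCBX8-1 against control it was 0 without either control or either shCBX8-1 library, where at most 0.0393% of all genes passed, and 15 and 16 without shCBX8-2 replicate 1 and 2, where 13% and 13% did. In shCBX8-2 against control it was 2 and 1 without control 1 and 2 (1.01% and 0.781% of all genes), 7 without either shCBX8-1 library (5.39% and 5.42%), and 19 and 26 without shCBX8-2 replicate 1 and 2 (19.5% and 30.9%). In the mean of both against control it was 0 without either control (0.00562% of all genes), 1 without either shCBX8-1 library (0.163% and 0.0896%), and 17 and 23 without shCBX8-2 replicate 1 and 2 (18.1% and 25%). Between the shCBX8 groups it was 4 without either control (3.46% and 3.47%), 2 without either shCBX8-1 library (0.708% and 0.807%), and 18 and 20 without shCBX8-2 replicate 1 and 2 (16% and 28.6%). Called values that passed without any 1 library were SLC2A1 in shCBX8-2 against control and PGK1 and LDHA between the shCBX8 groups. No called value changed sign in any setting.

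In the shCBX8-2 libraries the deviation of a gene from the mean of all libraries followed its GC content in opposite directions, with a Spearman correlation of 0.338 in replicate 1 and -0.246 in replicate 2 across 16054 genes, which share the library. In shCBX8-1 it was -0.037 and -0.159, and in control -0.094 and -0.015. The 40 genes had a median transcript GC content of 53.33%, against 50.08% over all of those genes. With the GC trend removed from each library, an alternative chosen after the data were seen, every one of these called values passed, and 21 of the 40 genes passed in shCBX8-2 against control, 15 up and 6 down, where 24.3% of all genes did.

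Glucose enters most cells through the facilitative transporters GLUT1 (SLC2A1) and GLUT3 (SLC2A3), and in the mean of both knockdown groups the first rose and the other fell. SLC2A1 (gene 6513, GRCh38.p14 chromosome 1, 42925353 to 42958868) stood at 499.8 and 484 CPM in shCBX8-1, at 650.1 and 588 CPM in shCBX8-2 and at 317 and 316 CPM in control. The 3 groups did not overlap, and the means were 155% and 196% of control. The log2 fold change was 0.64 ± 0.07 in shCBX8-1 (SE, adjusted p = 0.0131) and 0.97 ± 0.07 in shCBX8-2 (adjusted p = 0.0017), and shCBX8-2 was above shCBX8-1 by 0.33 ± 0.07 (adjusted p = 0.0343). The mean of both, 0.80 ± 0.06 (adjusted p = 0.00408), no longer passed without control 1 or control 2 (adjusted p of 0.0772 to 0.0917). The calls in shCBX8-1 and between the shCBX8 groups ended without any 1 control or shCBX8-1 library (adjusted p up to 0.169 and 0.182). SLC2A3 (gene 6515, chromosome 12, 7919230 to 7936187) stood at 50.1 and 54.8 CPM in shCBX8-1, at 51.0 and 56.3 CPM in shCBX8-2 and at 70.6 and 70.2 CPM in control. All 4 knockdown libraries lay below both controls, and the group means were 74.5% and 76.2% of that of control. SLC2A3 fell by 0.39 ± 0.09 in shCBX8-2 (adjusted p = 0.0385) and by 0.41 ± 0.08 in the mean of both (adjusted p = 0.0313). It stood at -0.42 ± 0.09 in shCBX8-1 (adjusted p = 0.0726). Both calls ended without any 1 control or shCBX8-1 library (adjusted p up to 0.217 and 0.29).

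The promoters of 5 genes are shown because they carry the main patterns: SLC2A1 and ADM rose in both shCBX8 groups, PGK1 and EGLN3 passed in opposite directions, and CA9 had the largest fold change of the 40. Each is the 250 bases before the RefSeq start on GRCh38.p14, 5′ to 3′ on the strand of the gene, in lower case with the ACGTG and GCGTG cores of the hypoxia response element, found on either strand, in capitals.
SLC2A1: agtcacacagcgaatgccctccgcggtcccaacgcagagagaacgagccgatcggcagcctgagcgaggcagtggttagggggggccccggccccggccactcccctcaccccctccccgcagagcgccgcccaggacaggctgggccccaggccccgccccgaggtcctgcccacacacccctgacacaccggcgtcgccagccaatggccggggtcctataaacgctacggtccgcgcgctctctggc
ADM: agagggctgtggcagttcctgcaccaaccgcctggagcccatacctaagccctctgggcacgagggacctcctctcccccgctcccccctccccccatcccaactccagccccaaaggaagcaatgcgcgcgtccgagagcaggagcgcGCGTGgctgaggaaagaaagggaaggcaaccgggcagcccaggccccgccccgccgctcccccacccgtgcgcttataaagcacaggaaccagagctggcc
PGK1: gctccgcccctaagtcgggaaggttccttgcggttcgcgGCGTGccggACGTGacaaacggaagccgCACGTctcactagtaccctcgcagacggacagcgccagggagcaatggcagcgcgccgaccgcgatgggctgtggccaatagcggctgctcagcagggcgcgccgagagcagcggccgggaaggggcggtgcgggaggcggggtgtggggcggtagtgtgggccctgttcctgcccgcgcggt
EGLN3: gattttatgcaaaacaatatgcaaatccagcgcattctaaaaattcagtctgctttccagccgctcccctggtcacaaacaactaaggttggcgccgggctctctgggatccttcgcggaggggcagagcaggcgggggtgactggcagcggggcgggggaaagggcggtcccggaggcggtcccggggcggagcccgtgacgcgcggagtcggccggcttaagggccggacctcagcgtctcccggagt
CA9: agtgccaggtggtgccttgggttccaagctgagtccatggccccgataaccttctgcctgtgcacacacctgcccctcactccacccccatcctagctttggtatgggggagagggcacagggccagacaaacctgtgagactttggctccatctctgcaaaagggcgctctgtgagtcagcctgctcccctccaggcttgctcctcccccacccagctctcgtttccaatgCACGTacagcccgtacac
The windows are chr1:42958869-42959118 on the minus strand for SLC2A1, chr11:10304823-10305072 on the plus strand for ADM, chrX:78103998-78104247 on the plus strand for PGK1, chr14:33951075-33951324 on the minus strand for EGLN3, and chr9:35673678-35673927 on the plus strand for CA9. PGK1 held 3 cores, ADM and CA9 1 each, and SLC2A1 and EGLN3 0 in these letters, and in windows extended by 50 bases past the start SLC2A1 and PGK1 had 1 more each. No match says only that these letters are not in this window. Of the 40 genes 36 matched the RefSeq table (SLC2A3, VEGFA, BNIP3L and NDRG1 did not), with 64 windows of 300 bases since some genes have several starts. ACGTG, on either strand, was found in 39.062% of their windows, against 21.409% of 35116 windows of all genes and 24.547% of the windows of genes tested. For GCGTG the shares were 42.188%, 36.542% and 46.79%, and for either core 68.75%, 48.445% and 58.806%. The palindrome CACGTG counts as ACGTG on both strands. Of the 36 matched genes, 33 had a core in at least 1 window, and PGAM1, EGLN3 and P4HA2 had none. The share of all genes with a core in at least 1 window was not counted. Genes with several windows have more places for a core, so this count cannot be set beside the shares of windows.

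Of the 8 enzymes from glucose to triose phosphate, hexokinase 1 (HK1) and the muscle-type phosphofructokinase PFKM fell in shCBX8-2 and the aldolase gene ALDOA rose. HK1 (gene 3098, chromosome 10, 69270000 to 69401882), which phosphorylates glucose, stood at 113 and 110.2 CPM in shCBX8-1, at 85.1 and 76.5 CPM in shCBX8-2 and at 107 and 109.6 CPM in control. The shCBX8-2 libraries lay below all others, with a log2 fold change against control of -0.42 ± 0.08 (adjusted p = 0.0223) and against shCBX8-1 of -0.47 ± 0.08 (adjusted p = 0.0195). Its close relative HK2 (gene 3099, chromosome 2, 74834127 to 74893359) was scarce, at 3.57 and 2.85 CPM in shCBX8-1, 0.489 and 1.18 CPM in shCBX8-2 and 2.41 and 2.54 CPM in control. These values rest on 233 and 188 counts in shCBX8-1, 31 and 74 in shCBX8-2, and 160 and 170 in control. HK2 was lower in shCBX8-2 than in shCBX8-1 (-1.95 ± 0.42, adjusted p = 0.0356), and against control stood at -1.57 ± 0.42 (adjusted p = 0.055). PFKM (gene 5213, chromosome 12, 48105353 to 48146404) stood at 73.1 and 76.9 CPM in shCBX8-1, at 65.5 and 60.6 CPM in shCBX8-2 and at 90.2 and 92.7 CPM in control. Its groups did not overlap, and it fell by 0.54 ± 0.08 in shCBX8-2 (adjusted p = 0.0102) and by 0.41 ± 0.07 in the mean of both (adjusted p = 0.0233), with -0.29 ± 0.08 in shCBX8-1 (adjusted p = 0.142). The platelet-type phosphofructokinase PFKP stood at 538 and 532 CPM in shCBX8-1, at 679 and 622 CPM in shCBX8-2 and at 580.3 and 557 CPM in control. The difference between the shCBX8 groups passed (0.28 ± 0.07, adjusted p = 0.0488), while neither group passed against control (adjusted p = 0.592 and 0.113). ALDOA (gene 226, chromosome 16, 30064279 to 30070420), which cleaves fructose-1,6-bisphosphate, stood at 1746 and 1884 CPM in shCBX8-1, at 2762 and 2296 CPM in shCBX8-2 and at 1958 and 1858 CPM in control. ALDOA rose by 0.41 ± 0.09 in shCBX8-2 (adjusted p = 0.0354) and was above shCBX8-1 by 0.48 ± 0.09 (adjusted p = 0.0266), with the shCBX8-2 libraries above all others but far apart. GPI, PFKL and the brain-type aldolase ALDOC did not pass, with ALDOC nearest at 14.7 and 16.0 CPM in shCBX8-1, 15.5 and 12.5 CPM in shCBX8-2 and 19.3 and 22.8 CPM in control (-0.52 ± 0.13 in the mean of both, adjusted p = 0.0675). Without any 1 control or shCBX8-1 library the calls of ALDOA, PFKP and HK2 ended (adjusted p up to 0.193, 0.214 and 0.217), as did those of HK1 against control (up to 0.125) and of PFKM in the mean (up to 0.219). HK1 between the shCBX8 groups ended without either shCBX8-1 library (up to 0.115), and PFKM in shCBX8-2 without either control (up to 0.0874).

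PFKFB3 and PFKFB4 make and degrade fructose-2,6-bisphosphate, an activator of phosphofructokinase, and neither passed in any comparison. PFKFB3 stood at 409 and 392 CPM in shCBX8-1, 391 and 387 CPM in shCBX8-2 and 397 and 385 CPM in control. PFKFB4 stood at 8.88 and 8.69 CPM in shCBX8-1, at 7.06 and 5.93 CPM in shCBX8-2 and at 12.3 and 8.52 CPM in control, where the control libraries differed by more than the knockdown groups did.

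In the steps from triose phosphate to pyruvate, 4 of 7 genes rose in shCBX8-2 against control, namely TPI1, GAPDH, PGK1 and PKM, and in shCBX8-1 PGK1 fell. PGK1 (gene 5230, chromosome X, 78104248 to 78129295), phosphoglycerate kinase, which makes the first ATP of this phase, stood at 540.5 and 558 CPM in shCBX8-1, at 997 and 922 CPM in shCBX8-2 and at 717 and 737 CPM in control. The control libraries lay between the shCBX8 groups and no groups overlapped, with means of 75.5% and 132% of control. PGK1 fell by 0.40 ± 0.06 in shCBX8-1 (adjusted p = 0.0335) and rose by 0.40 ± 0.06 in shCBX8-2 (adjusted p = 0.0118), a difference between the shCBX8 groups of 0.80 ± 0.07 (adjusted p = 0.00159), and the mean of both was -0.00 ± 0.06. TPI1 (gene 7167, chromosome 12, 6867420 to 6870948), which interconverts the triose phosphates, stood at 1055 and 1108 CPM in shCBX8-1, at 1473 and 1303 CPM in shCBX8-2 and at 1059 and 1041 CPM in control. It rose by 0.40 ± 0.07 in shCBX8-2 (adjusted p = 0.0179) and was above shCBX8-1 by 0.36 ± 0.07 (adjusted p = 0.0298). GAPDH (gene 2597, chromosome 12, 6534517 to 6538371), often used as a reference transcript, stood at 10110 and 10530 CPM in shCBX8-1, at 12810 and 11080 CPM in shCBX8-2 and at 9540 and 9372 CPM in control. All 4 knockdown libraries exceeded both controls, and the change passed in shCBX8-2 (0.34 ± 0.07, adjusted p = 0.0271) but not in shCBX8-1 (0.13 ± 0.07, adjusted p = 0.432). PKM (gene 5315, chromosome 15, 72199029 to 72231591), pyruvate kinase, stood at 5929 and 5942 CPM in shCBX8-1, at 7259 and 6370 CPM in shCBX8-2 and at 5294 and 5395 CPM in control. It likewise exceeded control in all 4 libraries, passing in shCBX8-2 (0.35 ± 0.07, adjusted p = 0.0199) and standing at 0.25 ± 0.06 in the mean of both (adjusted p = 0.0522). The mutase PGAM1 and the enolases ENO1 and ENO2 did not pass, at 0.21 ± 0.06, 0.21 ± 0.07 and -0.00 ± 0.11 in shCBX8-2 (adjusted p = 0.0769, 0.0959 and 0.995). PGK1 in shCBX8-1 and GAPDH ended without any 1 control or shCBX8-1 library (adjusted p up to 0.247 and 0.14), as did TPI1 between the shCBX8 groups (up to 0.177), while TPI1, PGK1 and PKM in shCBX8-2 ended without either control (up to 0.111, 0.0835 and 0.1). Several of these genes, GAPDH, PGK1, TPI1, PKM and ENO1 among them, as well as ALDOA and LDHA, have processed pseudogenes of similar sequence, and how reads that fit both were counted is not given in the sources used here.

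Lactate dehydrogenase A and the lactate exporter MCT4 (SLC16A3) rose in shCBX8-2, while LDHB and PDK1 did not pass anywhere. LDHA (gene 3939, chromosome 11, 18394563 to 18408425), which favours the reduction of pyruvate to lactate, stood at 2398 and 2466 CPM in shCBX8-1, at 3652 and 3481 CPM in shCBX8-2 and at 2653 and 2572 CPM in control. The shCBX8-2 libraries lay well above and the shCBX8-1 libraries just below control, at 137% and 93.1% of its mean. LDHA rose by 0.45 ± 0.05 in shCBX8-2 (adjusted p = 0.0047) and was above shCBX8-1 by 0.55 ± 0.05 (adjusted p = 0.00264), with -0.10 ± 0.05 in shCBX8-1 against control (adjusted p = 0.384). LDHB, the heart-type subunit, stood at 1209 and 1293 CPM in shCBX8-1, at 1349 and 1249 CPM in shCBX8-2 and at 1313 and 1245 CPM in control, with overlap of all groups. SLC16A3 (gene 9123, chromosome 17, 82217934 to 82240086) stood at 66.9 and 67.1 CPM in shCBX8-1, at 113 and 89.9 CPM in shCBX8-2 and at 43.2 and 63.5 CPM in control, where the control libraries were far apart. It rose by 0.92 ± 0.19 in shCBX8-2 (adjusted p = 0.0252) and stood at 0.33 ± 0.19 in shCBX8-1 (adjusted p = 0.443), and the test between the shCBX8 groups gave 0.59 ± 0.19 (adjusted p = 0.101). PDK1, a pyruvate dehydrogenase kinase gene, stayed between 6.09 and 7.25 CPM in all 6 libraries. In shCBX8-2 the LDHA call ended without control 2 (adjusted p = 0.0585), and that of SLC16A3 without any 1 control or shCBX8-1 library (adjusted p up to 0.103).

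**Figure D2:**
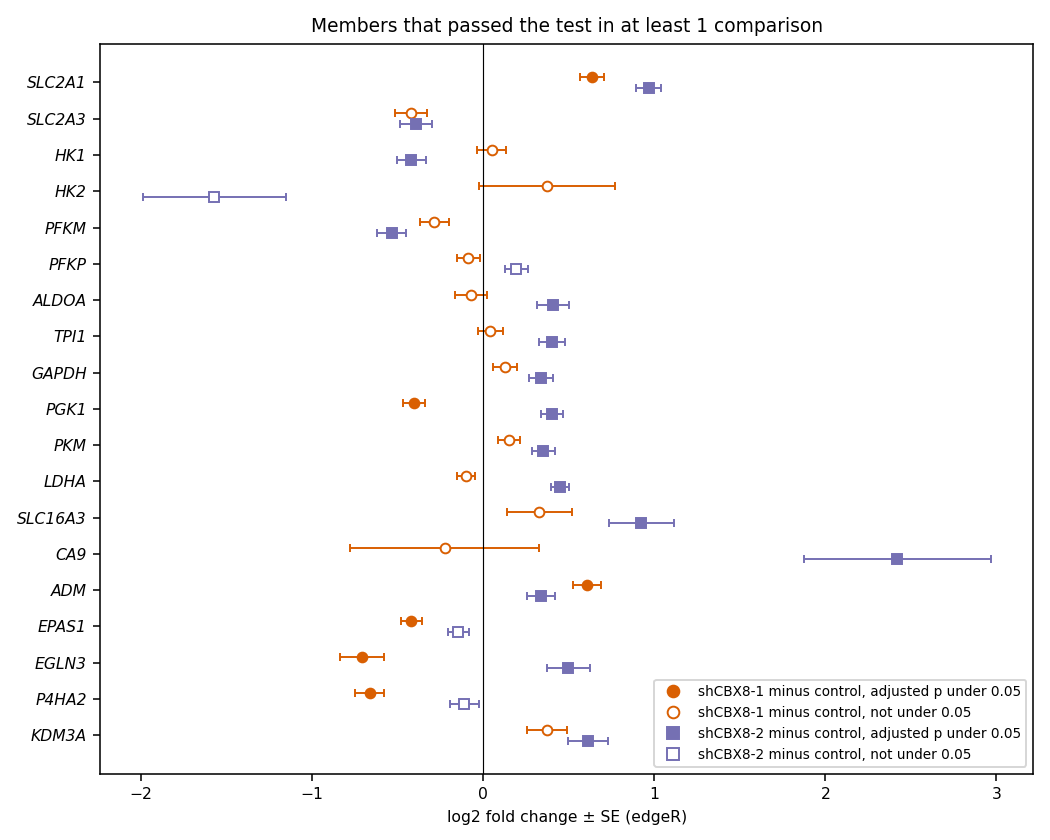
Log2 fold change with its SE (x axis) of the 19 genes that passed in at least 1 comparison, for shCBX8-1 minus control and shCBX8-2 minus control, where filled symbols have an adjusted p under 0.05. SLC2A1 and ADM are filled and positive with both, PGK1 and EGLN3 are filled on opposite sides, and CA9 lies farthest right in shCBX8-2 with a wide error.

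Carbonic anhydrase 9 (CA9; gene 768, chromosome 9, 35673928 to 35681159), a cell-surface enzyme of pH control and a classic HIF target, had the largest fold change of the 40 from very low levels. It stood at 0.23 and 0.667 CPM in shCBX8-1, at 3.48 and 2.16 CPM in shCBX8-2 and at 0.513 and 0.538 CPM in control, or 15 and 44 counts, 221 and 136 counts, and 34 and 36 counts. Both shCBX8-2 libraries lay above all others, and the shCBX8-1 libraries fell on either side of control. CA9 rose by 2.42 ± 0.55 in shCBX8-2 (adjusted p = 0.0327) and was above shCBX8-1 by 2.65 ± 0.55 (adjusted p = 0.0315). The first call ended without control 1, control 2 or shCBX8-2 replicate 1 (adjusted p up to 0.204), and the second without any 1 control or shCBX8-1 library (up to 0.143). CA12, another membrane-bound carbonic anhydrase, did not pass, at 719 and 733 CPM in shCBX8-1, 685 and 622 CPM in shCBX8-2 and 649 and 722 CPM in control.

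Among secreted HIF targets ADM rose in both shCBX8 groups, and VEGFA and ANGPTL4 did not pass. ADM (gene 133, chromosome 11, 10305073 to 10307397), which codes for the vasodilator peptide adrenomedullin, stood at 64.02 and 63.6 CPM in shCBX8-1, at 53.8 and 52.1 CPM in shCBX8-2 and at 40.7 and 43.1 CPM in control. Groups did not overlap, and here shCBX8-1 was the higher, with 0.61 ± 0.08 (adjusted p = 0.0242) against 0.34 ± 0.08 in shCBX8-2 (adjusted p = 0.0432), although the test between the shCBX8 groups did not pass (-0.27 ± 0.08, adjusted p = 0.0922). In the mean of both it was 0.47 ± 0.07 (adjusted p = 0.0177), and these calls ended without any 1 control or shCBX8-1 library (adjusted p up to 0.244). VEGFA, the angiogenic growth factor, stood at 34.2 and 31.2 CPM in shCBX8-1, at 41.7 and 38.0 CPM in shCBX8-2 and at 40.1 and 41.0 CPM in control. The shCBX8-1 libraries were the lowest (-0.31 ± 0.10, adjusted p = 0.188), while shCBX8-2 overlapped control (-0.02 ± 0.10).

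Of the HIF alpha subunits EPAS1 fell in shCBX8-1 and in the mean of both, and HIF1A did not pass by edgeR but did by DESeq2. EPAS1 (gene 2034, chromosome 2, 46297407 to 46386697) stood at 289 and 289 CPM in shCBX8-1, at 348 and 350.0 CPM in shCBX8-2 and at 379 and 394 CPM in control. Groups did not overlap, with log2 fold changes of -0.42 ± 0.06 in shCBX8-1 (adjusted p = 0.0272), -0.15 ± 0.06 in shCBX8-2 (adjusted p = 0.175) and -0.28 ± 0.05 in the mean of both (adjusted p = 0.0284). The level in shCBX8-2 was above shCBX8-1 by 0.27 ± 0.06 (adjusted p = 0.0405). HIF1A (gene 3091, chromosome 14, 61695513 to 61748258) stood at 297 and 316 CPM in shCBX8-1, at 286 and 388 CPM in shCBX8-2 and at 410.4 and 440.5 CPM in control. All 4 knockdown libraries lay below both controls, but the shCBX8-2 libraries were far apart. No comparison passed by edgeR (-0.40 ± 0.12 in the mean of both, adjusted p = 0.0943). By DESeq2 HIF1A and EPAS1 both passed downward in the mean of both and in shCBX8-1, where 15.4% and 9.84% of all genes passed. Neither passed by DESeq2 in shCBX8-2 against control, so whether HIF1A is called depends on the test. The prolyl hydroxylase gene EGLN3 (gene 112399, chromosome 14, 33924227 to 33951074), itself a HIF target, stood at 10.5 and 12.2 CPM in shCBX8-1, at 26.8 and 25.6 CPM in shCBX8-2 and at 17.9 and 19.2 CPM in control. The control libraries again lay between the shCBX8 groups, as for PGK1. Per kilobase of transcript EGLN3 stood at 10.71 and 9.442 CPM in shCBX8-2 and at 9.595 and 7.943 CPM in control, and these groups overlapped. On that scale shCBX8-1 stayed below both, at 3.866 and 4.505 CPM. EGLN3 fell by 0.71 ± 0.13 in shCBX8-1 (adjusted p = 0.0445) and rose by 0.50 ± 0.13 in shCBX8-2 (adjusted p = 0.0484), a difference of 1.21 ± 0.13 (adjusted p = 0.00414). EGLN1, the main HIF hydroxylase in most cells, did not pass, at 109 and 96.8 CPM in shCBX8-1, 73.3 and 89.7 CPM in shCBX8-2 and 107 and 95.5 CPM in control. The EPAS1 calls and those of EGLN3 against control ended without any 1 control or shCBX8-1 library (adjusted p up to 0.263 and 0.336), and EGLN3 between the shCBX8 groups without either shCBX8-1 library (up to 0.0744).

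Of the remaining HIF targets P4HA2 fell and KDM3A rose. P4HA2 (gene 8974, chromosome 5, 132190147 to 132227853), an alpha subunit of collagen prolyl 4-hydroxylase, stood at 32.7 and 32.3 CPM in shCBX8-1, at 47.6 and 47.7 CPM in shCBX8-2 and at 51.1 and 51.9 CPM in control. The shCBX8-1 libraries stood apart, with a log2 fold change of -0.66 ± 0.08 (adjusted p = 0.0196), while shCBX8-2 was just below control (-0.11 ± 0.08, adjusted p = 0.432). The mean of both was -0.39 ± 0.07 (adjusted p = 0.0279), and the difference between the shCBX8 groups 0.55 ± 0.08 (adjusted p = 0.0122). KDM3A (gene 55818, chromosome 2, 86437044 to 86492716), a histone H3 lysine demethylase, stood at 32.7 and 32.1 CPM in shCBX8-1, at 38.7 and 38.0 CPM in shCBX8-2 and at 22.9 and 27.2 CPM in control. Its groups did not overlap, and it rose by 0.61 ± 0.12 in shCBX8-2 (adjusted p = 0.0199) and by 0.49 ± 0.10 in the mean of both (adjusted p = 0.0389), with 0.37 ± 0.12 in shCBX8-1 (adjusted p = 0.168). The oxidoreductase gene ERO1A, which forms disulphide bonds in the endoplasmic reticulum, was lower in all 4 knockdown libraries, at 77.3 and 79.4 CPM in shCBX8-1, 77.4 and 91.6 CPM in shCBX8-2 and 100.8 and 100.7 CPM in control, but did not pass (-0.31 ± 0.08 in the mean of both, adjusted p = 0.0786). P4HA1, the stress-response gene NDRG1, the mitophagy receptors BNIP3 and BNIP3L and the scarce ankyrin-repeat gene ANKRD37 did not pass in any comparison. Calls of P4HA2 and KDM3A ended without any 1 control or shCBX8-1 library (adjusted p up to 0.266 and 0.259).

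Levels of different genes were set beside each other per kilobase of transcript, for the 37 genes with a GENCODE length for at least 90% of their count (GPI, PFKM and P4HA2 were left out). GAPDH was the highest at 5535 ± 125, 6402 ± 710 and 5085 ± 37.2 CPM per kilobase in shCBX8-1, shCBX8-2 and control (SD, n = 2 each). It was followed by PKM at 2491 ± 12.95, 2857 ± 260.3 and 2235 ± 30.3, and ENO1 at 2059 ± 65.9, 2398 ± 142 and 2016 ± 37.3. LDHA, at 1016 ± 15.1, 1488 ± 45.0 and 1086 ± 20.7 CPM per kilobase, and LDHB, at 959 ± 45.9, 996 ± 54.0 and 979 ± 39.0, were close in control and apart in shCBX8-2. SLC2A1, at 134 ± 3.03, 169 ± 11.9 and 86.3 ± 0.109 CPM per kilobase, exceeded SLC2A3, at 13.4 ± 0.862, 13.7 ± 0.951 and 18.0 ± 0.0654, in every group. HK1, at 30.7 ± 1.07, 22.4 ± 1.66 and 30.0 ± 0.569, stood far above HK2, at 0.556 ± 0.0885, 0.144 ± 0.0843 and 0.407 ± 0.0471. The lowest in control was CA9, at 0.277 ± 0.191, 1.75 ± 0.578 and 0.325 ± 0.0111 CPM per kilobase, so its rise in shCBX8-2 left it among the scarcest of the 37.

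**Figure D3:**
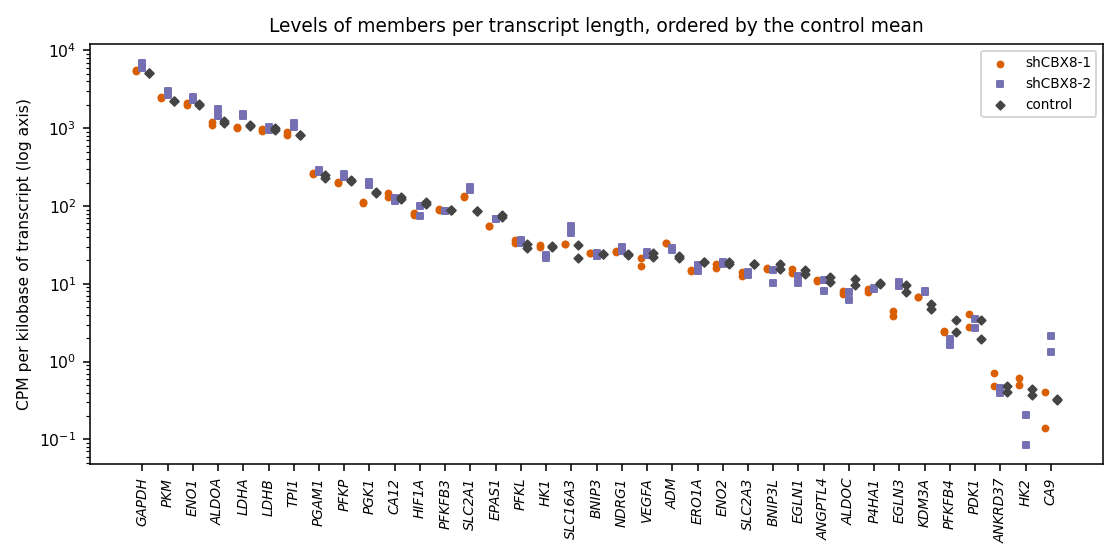
Level of 37 of the 40 genes in each library in CPM per kilobase of transcript on a log axis, ordered by the control mean, with shCBX8-1, shCBX8-2 and control from left to right at each gene. GAPDH is highest and CA9 lowest in control, and CA9, HK2 and EGLN3 show the widest gaps between groups, although shCBX8-2 and control overlap for EGLN3.

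Counts were deposited per transcript, and in 17 of the 40 genes at least 2 accessions held 10% or more of the count. The transcript NM_002654 of PKM, which codes for the M2 isoform, held 69.5 and 72.8% of the gene's count in shCBX8-1, 72.9 and 72.7% in shCBX8-2 and 70.6 and 70.6% in control. NM_182471, which codes for the M1 isoform, held 10.3 and 10.1%, 12.3 and 13.1%, and 13.5 and 12.1%, so the PKM shares stayed within a few percentage points in all libraries. For SLC16A3, NM_004207 held 53.7 and 49.4% in shCBX8-1, 69.7 and 67.9% in shCBX8-2 and 52.7 and 49.3% in control. Its level was 78.4 and 61.0 CPM in shCBX8-2 and 22.8 and 31.3 CPM in control, whereas NM_001042423 stood at 33.8 and 28.6 CPM in shCBX8-2 and 17.5 and 31.9 CPM in control, and overlapped. PFKFB4 had NM_004567 at 79.3 and 98.3% in shCBX8-1 and 78.2 and 89.8% in control but listed at 0 in both shCBX8-2 libraries, where NM_001317134 held 97.8 and 96.8%. That transcript held 0 and 1.05% in shCBX8-1 and 20.8 and 6.32% in control, of gene totals of 579 and 573 counts in shCBX8-1, 448 and 373 in shCBX8-2 and 813 and 570 in control. Shares of other genes also moved between libraries of 1 group, as for NM_002610 of PDK1, at 0 and 21.2% in shCBX8-1, 20.2 and 18.5% in shCBX8-2 and 95.3 and 30.5% in control, and such shares depend on how the counting split reads between transcripts.

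**Figure D4:**
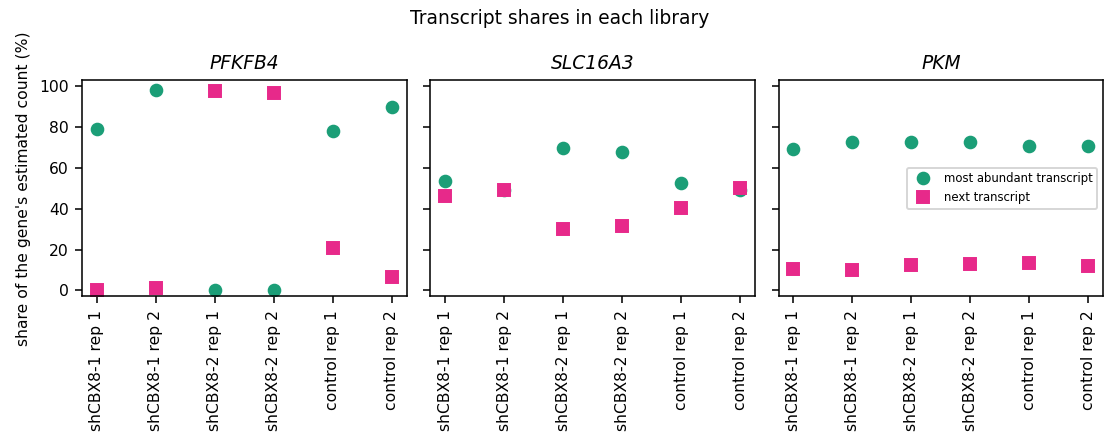
Share of a gene's estimated count (y axis, %) held by its leading transcripts in each library (x axis) for PFKFB4 (NM_004567 and NM_001317134), SLC16A3 (NM_004207 and NM_001042423) and PKM (NM_002654 and NM_182471). In the shCBX8-2 libraries NM_004567 of PFKFB4 lies at 0 and NM_004207 of SLC16A3 near 70%, and the PKM shares are nearly flat.

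Genes of neighbouring pathways were taken from lists drawn up with earlier results of these data known. Of 42 further glycolytic isoenzymes, transporters and pyruvate enzymes 34 were tested. In the mean of both knockdown groups 3 fell and 0 rose by edgeR, with a median log2 fold change of -0.16. That is 8.82% of the 34, where 6.79% of all genes passed. At an unadjusted p under 0.05 in edgeR 11 were lower and 3 higher. By DESeq2 31 were tested, and 6 passed downward and 3 upward. The pyruvate dehydrogenase kinase gene PDK4 stood at 73.5 and 91.6 CPM in shCBX8-1, 49.5 and 73.2 CPM in shCBX8-2 and 119.9 and 155 CPM in control (-0.95 ± 0.18, adjusted p = 0.0286). PDK2, of the same family, stood at 41.0 and 41.8, 40.6 and 32.7, and 53.7 and 55.2 CPM (-0.48 ± 0.10, adjusted p = 0.0402). Both kinase genes were lower in every knockdown library than in either control, unlike PDK1. The glucose transporter gene SLC2A6 stood at 73.2 and 72.5 CPM in shCBX8-1, 24.9 and 26.0 CPM in shCBX8-2 and 59.7 and 63.2 CPM in control, with the shCBX8-1 libraries above and the shCBX8-2 libraries below both controls. Its log2 fold change was -0.51 ± 0.07 in the mean (adjusted p = 0.0134), and the shCBX8 groups differed by -1.52 ± 0.09 (adjusted p = 0.000899), a call that held without any 1 library. Of 16 HIF pathway regulators 15 were tested. In the mean 0 passed by edgeR, where 6.79% of all genes did, with a median of -0.01. At an unadjusted p under 0.05 in edgeR 1 gene was higher, and 1 passed by DESeq2, also higher. Between the shCBX8 groups 2 of the 15 passed, 13.3% where 9.82% of all genes did. These 2 were named after their values were seen. ARNT2, a relative of ARNT, stood at 58.1 and 59.5 CPM in shCBX8-1, at 27.5 and 28.8 CPM in shCBX8-2 and at 43.6 and 42.2 CPM in control, with control between the shCBX8 groups and no overlap. It fell in shCBX8-2 (-0.61 ± 0.09, adjusted p = 0.0084), stood at 0.45 ± 0.09 in shCBX8-1 (adjusted p = 0.0516) and was lower in shCBX8-2 than in shCBX8-1 (-1.06 ± 0.09, adjusted p = 0.0017). The last call held without any 1 library, and that in shCBX8-2 ended without control 1 or control 2 (adjusted p = 0.0873 and 0.0841). EP300, a coactivator of HIF, stood at 59.9 and 55.5 CPM in shCBX8-1, at 72.5 and 78.0 CPM in shCBX8-2 and at 60.8 and 65.0 CPM in control. It was higher in shCBX8-2 than in shCBX8-1 (0.38 ± 0.09, adjusted p = 0.0448). This call ended without any 1 control or shCBX8-1 library (adjusted p up to 0.296).

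Of 35 further HIF targets 33 were tested, and in the mean of both 2 rose and 2 fell, 12.1% where 6.79% of all genes passed, with a median of -0.16. Stanniocalcin 2 (STC2) stood at 55.8 and 56.9 CPM in shCBX8-1, 69.5 and 64.2 CPM in shCBX8-2 and 41.6 and 39.4 CPM in control (0.60 ± 0.08, adjusted p = 0.0112). The mitochondrial adenylate kinase gene AK4 stood at 25.5 and 22.7, 21.4 and 20.4, and 36.2 and 36.6 CPM in the same order (-0.70 ± 0.09, adjusted p = 0.0124). STC1 stood at 7.39 and 8.02 CPM in shCBX8-1, 18.0 and 18.5 CPM in shCBX8-2 and 17.6 and 23.4 CPM in control (-0.79 ± 0.14, adjusted p = 0.0233). STC2 and AK4 passed in both shCBX8 groups, up and down, and STC1 passed in shCBX8-1 (-1.41 ± 0.16, adjusted p = 0.0149) and between the shCBX8 groups (1.24 ± 0.16, adjusted p = 0.0078). In shCBX8-1 against control 2 of these 33 rose and 3 fell, 15.2% where 2.47% of all genes passed. In shCBX8-2 2 rose and 5 fell, 21.2% where 12.7% did. Of 21 genes of the pentose phosphate and glycogen branches 1 rose, the glycogen phosphorylase gene PYGL, at 135 and 141 CPM in shCBX8-1, 209 and 192 CPM in shCBX8-2 and 126 and 127 CPM in control (0.40 ± 0.07, adjusted p = 0.0218), and the list median was 0.00. In the mean of both, that is 4.76% of the list by edgeR, where 6.79% of all genes passed. At an unadjusted p under 0.05 in edgeR 5 were higher and 2 lower. By DESeq2 4 of the 21 passed upward and 0 downward, where 15.4% of all genes passed. Of 21 TCA cycle and related enzymes 1 fell, IDH1, the cytosolic isocitrate dehydrogenase, at 153 and 165 CPM in shCBX8-1, 142 and 165 CPM in shCBX8-2 and 252 and 258 CPM in control (-0.71 ± 0.08, adjusted p = 0.00802), with a list median of 0.04 and again 4.76% called. By DESeq2 1 of these 21 passed upward and 2 downward in the mean of both. In the mean of both, the calls of the genes named from these 4 lists ended without any 1 control or shCBX8-1 library, with adjusted p up to 0.324 for PDK4, 0.284 for PDK2, 0.192 for SLC2A6, 0.162 for STC2, 0.169 for AK4, 0.236 for STC1, 0.19 for PYGL and 0.158 for IDH1. The shCBX8-1 calls of STC2, AK4, STC1 and IDH1 ended likewise (adjusted p up to 0.318, 0.341, 0.244 and 0.265). In shCBX8-2 the calls of STC2 and AK4 ended without control 1 or control 2 (adjusted p of 0.058 to 0.0678 and 0.0706 to 0.0805). That of STC1 between the shCBX8 groups ended without shCBX8-1 replicate 1 or 2 (adjusted p = 0.115 and 0.0946).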

How the data were processed

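Per the submitters' processing notes, HISAT2 2.2.1, StringTie 2.2.1, DESeq2 1.34.0 and build hg38 were used, without roles. Sources used here name no annotation or counting step. Expected counts were deposited by the authors for each RefSeq transcript, unscaled and already whole. Of 84787 entries, 83963 were matched to a gene by RefSeq (GRCh38.p14), 357 by GENCODE 29, and 467 kept as they were. Counts were summed per gene, repeated accessions included.

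In R 4.3.3, edgeR 4.0.16 (filterByExpr with minimum count 10 and total 15, TMM, quasi-likelihood) fitted 3 groups over all 6 libraries, and p-values were two-sided and Benjamini-Hochberg adjusted over 17115 genes, with a threshold of 0.05. SE came from the F statistic. CPM are counts over TMM-scaled totals, on the usual CPM scale. The fit was also run on counts simulated from its own means and dispersions, without the GC trends of these libraries. That run checks the code, not how well the model suits these data. DESeq2 1.42.0 and the other alternatives are in the closing section. Genes and lists were chosen with earlier results of these data known. All members that passed get values per library, with HIF1A, EPAS1, GAPDH, LDHA, PKM, VEGFA and CA9 always; from each other list the called genes of lowest p in the mean of both against control, at most 3, are named, and ALDOC, ERO1A, PFKFB3, PFKFB4, LDHB, CA12 and EGLN1 were added after their values were seen. Transcript lengths and GC came from GENCODE 29.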

Additional observations from a re-analysis of the deposited data

Results flagged for a closer look

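For 12 of the 40 genes the effect differed between the shCBX8 groups, by the test of shCBX8-2 against shCBX8-1 itself (edgeR, adjusted over all genes tested). In 10 of them shCBX8-2 was the higher. The log2 difference was 2.65 for CA9 (adjusted p = 0.0315), 1.21 for EGLN3 (0.00414), 0.8 for PGK1 (0.00159), 0.55 for LDHA (0.00264) and 0.55 for P4HA2 (0.0122). It was 0.48 for ALDOA (0.0266), 0.36 for TPI1 (0.0298), 0.33 for SLC2A1 (0.0343), 0.28 for PFKP (0.0488) and 0.27 for EPAS1 (0.0405). In HK1 and HK2 shCBX8-2 was the lower, at -0.47 (0.0195) and -1.95 (0.0356). Without any 1 library PGK1 and LDHA kept this call, with adjusted p no higher than 0.0382 and 0.0466 over the settings tried. CBX8 itself was higher in shCBX8-2 than in shCBX8-1 (1.02 ± 0.15, adjusted p = 0.0115), and the part of that difference in these genes was not tested.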

How the results depend on the processing

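The values that passed kept their direction in all settings, and DESeq2 size factors, the DESeq2 Wald test and removal of the GC trend kept all 40. No filter kept 35, leaving out repeated accessions 38, only the libraries compared 17 of 33, and the 4 knockdown libraries as 1 group 0 of 7. The count of the 40 genes that passed in the mean of both against control was 7, and it was 15 by DESeq2, 16 with the GC trend removed, 3 with the replicate block, 0 at a minimum of 2-fold, 0 with the knockdown libraries as 1 group (15.4, 17.1, 4.07, 1.52 and 0.158% of all genes, against 6.79%), and 0 to 23 with 1 library left out. In shCBX8-1 it was 6, against 11 by DESeq2, 12 with the GC trend removed, 15 with only the libraries compared, 2 with the replicate block, 0 at 2-fold (9.84, 9.67, 14.4, 1.01 and 0.906% of all genes, against 2.47%), and 0 to 16 with 1 library left out. In shCBX8-2 it was 15, against 7 with only the libraries compared, 1 at 2-fold, 10 with the replicate block (5.97, 3.64 and 9.84% of all genes, against 12.7%), and 1 to 26 with 1 library left out. Between the shCBX8 groups it was 12, against 19 with the GC trend removed, 4 with only the libraries compared, 6 with the replicate block, 3 at 2-fold (20, 3.85, 6.32 and 3.35% of all genes, against 9.82%), and 2 to 20 with 1 library left out. Fewer genes past the fold follow from the construction of that setting. Settings with fewer libraries gave more calls in some cases and fewer in others. The cause of these and the other shifts was not tested. The replicate numbers did not pair the libraries: same-numbered libraries deviated together with correlations of 0.016, -0.01 and -0.017 across genes. With 1 library left out, the lone library of a group is assumed to vary like the others. Scarce genes such as CA9, HK2 and ANKRD37 are limited by depth.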
